A study of Prunus persica with 2 samples.

Results

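miR393 and miR394 are plant miRNAs that guide the cleavage of transcripts for F-box proteins. Their members were taken by name: the 2 rows of the miRNA list named miR393 or miR394 (of 886 listed arms, 557 of them known miRNAs) and all 5 rows of the degradome target list with either name (of 469 miRNA and transcript pairs). The 5 rows lie on 5 of the 379 listed transcripts, 3 with miR393 and 2 with miR394. Both lists came from fruit of field-grown peach trees of the yellow-fleshed cultivar 'Troubador', as the labels spell it ('Troubadour' in the study's text), collected at 5 stages, at 35, 55 and 75 days from full bloom and later at 90 and 105 days. For small RNA sequencing, equal amounts of total RNA of these stages were mixed into 1 library, and 1 degradome library was made from fruit with the same label. There is no second condition and no replicate, so each value is a single measurement of fruit development as a whole, the intervals given cover counting error only, and reads amplified without molecular identifiers are not independent molecules. Transcript levels were not measured in these files, and the tissue label was not checked against marker genes.

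F-box proteins are the substrate-recognising subunits of SCF ubiquitin ligases, which mark other proteins for degradation. The receptor TIR1 and its AFB relatives are F-box proteins that bind auxin together with Aux/IAA repressors. Loss of these repressors frees the auxin response factors (ARFs) to act on their genes, a route known for its part in fruit set and fruit growth. In Arabidopsis, miR393 targets TIR1 and AFB transcripts, and miR394 targets the F-box gene LCR, known for its part in leaf shape and in keeping shoot stem cells. Plant miRNAs pair along nearly their whole length with a target, which is then cut opposite bases 10 and 11 of the miRNA, and a degradome library reads the 5′ ends of the downstream fragments.

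The mature sequences show how unlike the members are, and the seed (bases 2 to 8) is in capitals.
miR393: uCCAAAGGgaucgcauugauc
miR394: uUGGCAUUcuguccaccucc

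miR393 was 21 nt and miR394 20 nt long. Both start with U, as did the deposited sequences of 25 of the 34 miRNA families that the study lists as conserved among plants, of which 27 were 21 nt and 4 were 20 nt long. The sequences are 14 edits (substitutions, insertions or deletions) apart. With the bases on either side of the cut in capitals, counted from the 5′ end, they read as follows.
miR393: uccaaagggAUcgcauugauc
miR394: uuggcauucUGuccaccucc

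Neither miRNA had a close variant in the list. Of the other 885 sequences, 0 lay within 4 edits of miR393 and 0 within 4 edits of miR394, and the nearest were 7 edits away from either. For miR393 these nearest sequences were miR4376 with 500 reads, miR1318 with 2 and miR5369 with 1, and for miR394 it was miR2877 with 1 read. No other listed sequence shared the seed of miR393. miR5509, read 1 time, shared that of miR394 and is shown because its remaining bases differ.
miR5509: uUGGCAUUuuuucuugggcau

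miR5509 is 9 edits from miR394. Its single listed pair was with ppa011550m, which is not a transcript of miR394. So the listed sequences of miR393 and miR394 were not shared with another name. Each has 1 row in the list, so whether variants were counted under the same name cannot be told.

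Both miRNAs were rare in the fruit library. miR393 had 106 reads (95% exact Poisson interval 86.8 to 128.2), which was 0.00459% of the 2308209 listed miRNA reads (exact Clopper-Pearson interval 0.00376 to 0.00555%). miR394 had 37 reads (26.1 to 51.0), or 0.00160% of them (0.00113 to 0.00221%). miR393 was read 2.86 times as often as miR394, and the exact interval of this ratio, 1.95 to 4.29, lies above 1.

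Among the 34 conserved families, miR393 stood at place 23 by reads and miR394 at place 26, below the family median of 388 reads. miR156, known for its SPL targets, headed this order with 1910151 reads, which is 18020.3 times the count of miR393 and 51626 times that of miR394. Most known miRNAs were rarer still, with a median of 1 read. Of the 557 known miRNAs, 519 had fewer reads than miR393 and 506 fewer than miR394.

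The neighbours of miR393 in the order of conserved families were miR399, known for its part in phosphate uptake, with 142 reads, and miR171, known for GRAS targets, with 60. The counting interval of miR399 (119.6 to 167.4) overlapped that of miR393, but the interval of the ratio of miR393 to miR399 (0.75, 0.57 to 0.97) lay just below 1. That of miR171 (45.8 to 77.2) did not overlap it, and the ratio of miR393 to miR171 was 1.77 (1.28 to 2.47). miR394 had miR390 above it with 58 reads and miR165 below it with 35. The ratio of miR394 to miR390 was 0.64 (0.41 to 0.98), while miR394 and miR165 did not differ beyond counting error (1.06, 0.65 to 1.73).

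**Figure D1:**
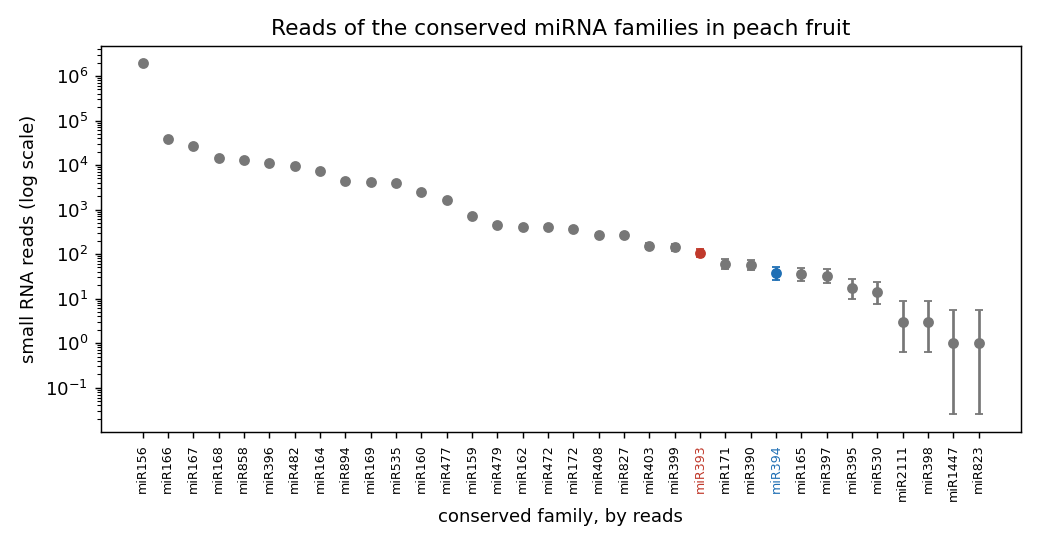
Small RNA reads (vertical axis, log scale) of the 34 conserved families in the fruit library, ordered by reads, with exact 95% Poisson intervals as bars. miR393 (red) with 106 reads and miR394 (blue) with 37 lie in the lower part of the order, far below miR156 with 1910151.

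Rare as both miRNAs were, each was listed with a strongly read F-box site in the degradome. miR393 was listed with ppa003344m, whose best match in Arabidopsis is the auxin receptor gene TIR1, and with ppa003465m, which matches the related receptor gene AFB2. miR394 was listed with ppa004699m, which matches the Arabidopsis F-box gene AT1G27340.1, known as LCR. Which genome release these gene positions refer to was not stated in the texts used. ppa003344m lies on scaffold 8 at 20944811 to 20948669, ppa003465m on scaffold 3 at 21690906 to 21693722 and ppa004699m on scaffold 1 at 22876030 to 22880493.

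The TIR1 transcript ppa003344m had 394 degradome reads (356.1 to 434.9) that start at nucleotide 1720 of the transcript. The aligned stretch ran from nucleotide 1710 to 1729 with an alignment score of 1, where 0 is full pairing and 4 the poorest pairing listed. The site was of category 0, the single highest position of its transcript, and the peak caller's p was 0.00426. This p was deposited by the authors, from CleaveLand, without adjustment for multiple pairs.

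The AFB2 transcript ppa003465m had 107 reads (87.7 to 129.3) at nucleotide 1612, within an aligned stretch from 1601 to 1621 of score 2. It too was of category 0 (the authors' p = 0.00360). The TIR1 site thus had 3.68 times the reads of the AFB2 site (2.97 to 4.60). More transcript or more cleavage per transcript cannot be told apart from these counts.

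The F-box transcript ppa004699m had 75 reads (59.0 to 94.0) at nucleotide 2100, in a stretch from 2090 to 2109 of score 1, again of category 0 (the authors' p = 0.00426). The TIR1 site had 5.25 times as many reads as this site (4.09 to 6.82), and the AFB2 site 1.43 times as many (1.05 to 1.94). The 3 F-box sites therefore differed from each other beyond counting error, with TIR1 highest and the miR394 target lowest.

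The remaining pairs were weaker in every listed measure. miR393 was listed with ppa003543m at nucleotide 387 (stretch 376 to 396), with 12 reads (6.20 to 20.96), and miR394 with ppa002503m at nucleotide 1976 (stretch 1966 to 1985), with 3 reads (0.619 to 8.77). Both had the score of 4 and were of category 2, a position above the median of its transcript but not the highest. The authors' p was 0.320 for ppa003543m and 0.855 for ppa002503m. No description of either transcript was found in the sources used here, so neither is named.

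**Figure D2:**
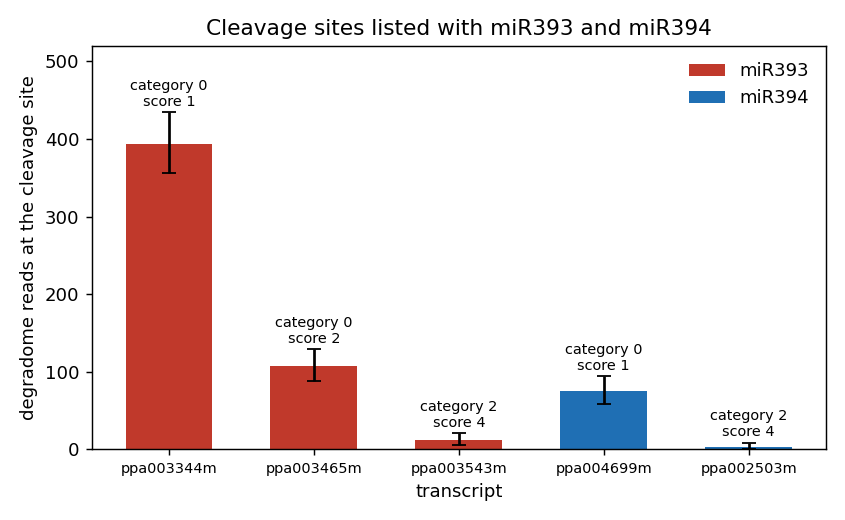
Degradome reads at the 5 listed cleavage sites of miR393 (red) and miR394 (blue), with exact 95% Poisson intervals as bars and the peak category and alignment score above each column. The 3 F-box sites, ppa003344m (394 reads), ppa003465m (107) and ppa004699m (75), are of category 0, and ppa003543m (12) and ppa002503m (3) are of category 2.

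Within each miRNA, nearly all site reads fell on F-box transcripts. Of the 513 reads at miR393 sites, the TIR1 site held 76.8% (72.9 to 80.4%), the AFB2 site 20.9% (17.4 to 24.6%) and ppa003543m 2.34% (1.21 to 4.05%). Of the 78 reads at miR394 sites, ppa004699m held 96.2% (89.2 to 99.2%) and ppa002503m 3.85% (0.80 to 10.8%). The sites of miR393 together had 6.58 times the reads of those of miR394 (5.17 to 8.46), against a ratio of 2.86 for the miRNAs themselves.

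Of the 5 pairs, 3 had the authors' p under 0.05, beside 18.6% of all 469 listed pairs (87 pairs). The same 3 were of category 0, beside 14.5% of all pairs (68 pairs). These are not separate results, since all 68 pairs of category 0 had p under 0.05. When the deposited p of all 469 pairs was adjusted by the Benjamini-Hochberg method, the adjusted p of each of the 3 F-box pairs was 0.125, the lowest in the list, and 0 of them stayed under 0.05. Whether the list holds every pair that was tried is not known.

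The authors' p did not follow the number of reads. ppa003344m and ppa004699m carried the same p of 0.00426 with 394 and 75 reads, and so did the miR827 site on ppa004388m with 525 reads and the site of the predicted m0128 on ppa007253m with 3 reads. All 4 pairs had a score of 1 and were of category 0. ppa003465m had a lower p than ppa003344m with fewer reads, and 3 pairs in the list had a p below it.

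Pairing and peak category went together in the list as they did among the 5 pairs. All 3 F-box pairs had a score of 2 or less and were of category 0, as were 44.6% of the 65 pairs with such a score. Neither ppa003543m nor ppa002503m, with a score of 4, was of category 0, and 4.86% of the 247 pairs with this score were. The 12 reads on ppa003543m and the 3 on ppa002503m lay above the median of 1 read for pairs with a score of 4. Among the 145 pairs of category 2 the median was 3 reads, with a range of 2 to 73.

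By reads the TIR1 site held place 4 among the 469 pairs, and also among the 393 distinct sites. Only 3 sites had more reads: the miR397 sites on the laccase transcripts ppa003646m (3942 reads) and ppa003296m (592), and the miR827 site on ppa004388m (525), an SPX domain gene. The AFB2 site held place 12 and ppa004699m place 14 among the distinct sites, while ppa003543m held place 50 and ppa002503m place 106. Of the 8901 reads at distinct listed sites, the 5 sites held 591 or 6.64% (6.13 to 7.18%). This total is that of the listed sites and not the depth of the degradome library, which is unknown.

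Counting back from the 3′ end of the aligned stretch, which faces the 5′ end of the miRNA, all 5 sites lay at position 10, as did 423 of the 469 sites. CleaveLand searches for reads at this place, so the listing itself selects for it. In 4 of the 5 pairs the aligned stretch was as long as the miRNA. The stretch on ppa003344m was 20 nt, 1 nt shorter than miR393. Of the 76 pairs in the list with such a shorter stretch, 55 lay at position 10, the TIR1 site among them, and 21 at position 9. The target bases are not printed, since the shortened copy of the study's alignments used here does not reach these miRNAs.

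The normalized reads, which fall below the raw reads in 100 of the 469 pairs, equalled the raw reads at all 5 sites. How the normalization was done was not stated. Of the 5 transcripts, ppa002503m was also listed with another miRNA, miR4993, at nucleotide 414 with 1 read. The sites on ppa003344m, ppa003465m and ppa004699m were each listed with a single miRNA name, so no other listed miRNA had the same site.

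Most of the transcripts that the study predicted for either miRNA from sequence alone, as found in the sources used here, had no row with these miRNAs in the degradome list. That list goes down to 1 read. For miR393 these were ppa007121m, described as a glutaredoxin family protein, and ppa023638m, ppa000064m and ppa023506m, described as unknown proteins. For miR394 they included ppa010908m, which matches MYB66, ppa006087m, which matches the dehydrogenase gene GAPCP-2 of glycolysis, and ppa002270m, which matches the RNA polymerase subunit gene NRPC2. ppa003344m, ppa003465m and ppa004699m were both predicted and listed. ppa003543m and ppa002503m were listed but were not found among the predicted transcripts in the sources used here. Whether absent pairs were tried against the degradome reads is not known.

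Relating miRNA reads to site reads, the site with the most reads was taken for each of the 22 conserved families that had any. At ppa003344m there were 3.72 degradome reads for each read of miR393 (2.99 to 4.65), at ppa003465m 1.01 (0.76 to 1.33) and at ppa003543m 0.113 (0.057 to 0.206). At ppa004699m there were 2.03 for each read of miR394 (1.35 to 3.09) and at ppa002503m 0.081 (0.016 to 0.256). These ratios set counts of differently made libraries side by side and have a meaning only relative to each other. By this measure miR393 held place 3 and miR394 place 5 of the 22 families, and 7 families were above 1.

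The families above 1 had at most 269 reads in the small RNA library, which follows in large part from dividing by miRNA reads, since these vary far more than site reads. Besides miR393 and miR394 they were miR397 (33 reads, 3942 at its highest site), miR395 (17 and 254), miR530 (14 and 52), miR827 (269 and 525) and miR165 (35 and 41). The site of miR165 on ppa001378m is also that of miR166, which had 39453 reads, so its reads cannot be given to 1 of them. miR397 and miR827 are shown because they share with miR393 a low read count and a strongly read site, yet have other seeds.
miR397: uCAUUGAGugcagcguugaug
miR827: uUAGAUGAccaucaacaaaca

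A low miRNA count did not by itself go with many site reads. The highest sites of miR393 and miR394 had 394 and 75 reads, against 3 for miR171 with 60 miRNA reads and 5 for miR390 with 58, which both stand between miR393 and miR394 in the order. The deposited sequence of miR171 is also the one that the study's list of PCR primers gives for the predicted m0231. Reads and sites under that name are not counted here, so those of miR171 may be only a part for this sequence. In all, 7 other families with a listed site had a read count within 3 times that of miR393 or miR394, and their highest sites ranged from 3 to 3942 reads with a median of 52. Both miR393 (394 reads) and miR394 (75 reads) lay above that median. The 13 families with a site and over 3 times the reads of miR393 had 2 to 216 reads at their highest sites, with a median of 41. The TIR1 site thus had more reads than the highest site of any of these 13 abundant families, and the F-box site of miR394 had more than the median of them. Of the 13, 0 were above 1 site read for each miRNA read, which follows in large part from choosing them by high miRNA reads.

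**Figure D3:**
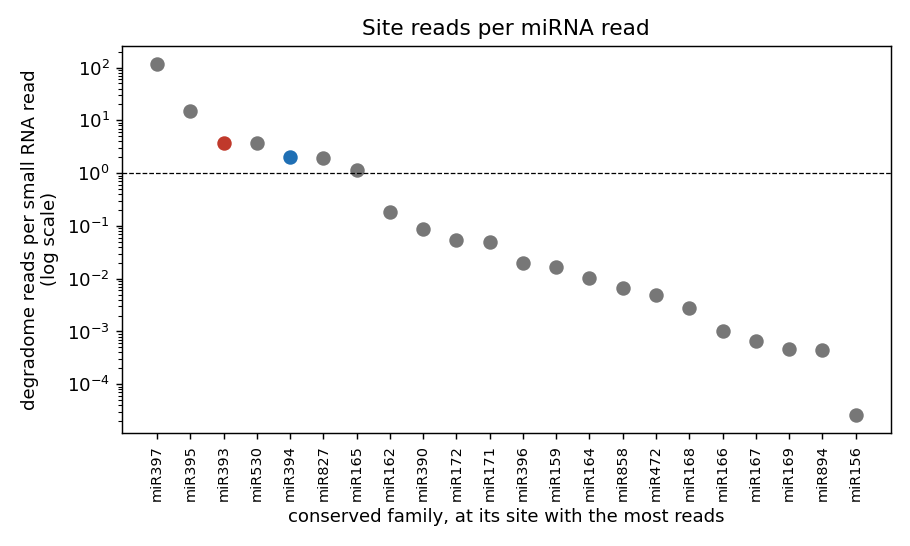
Degradome reads at the highest site divided by small RNA reads (vertical axis, log scale) for the 22 conserved families with a listed site, with a dashed line at 1. miR393 (red, 3.72) and miR394 (blue, 2.03) are among the 7 families above 1, while miR156 lies lowest.

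Across pairs, no single relation of miRNA reads to site reads held. Over the 290 pairs of known miRNAs, Spearman's rho was 0.45 and Pearson's r of the log10 values 0.44, and with 1 value for each of the 114 known miRNAs, at its highest site, rho was 0.46 and r 0.52. Over the 52 of these pairs with p under 0.05, rho was -0.011, and over the 76 pairs of conserved families it was -0.092. Among the 46 known pairs of category 0 rho was -0.25, and over the 22 conserved families at their highest site -0.23. The subsets by p and by category are chosen on the degradome peak itself, which cuts the low end of site reads. Pairs of category 0 had a median of 32.5 reads, against 2 over all listed pairs. How far this choice changed rho was not tested. The pairs share miRNAs, transcripts and both libraries, so these are descriptions with no test. Known miRNAs with 1 read, of which the list holds 282, form the low end of the wider set.

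**Figure D4:**
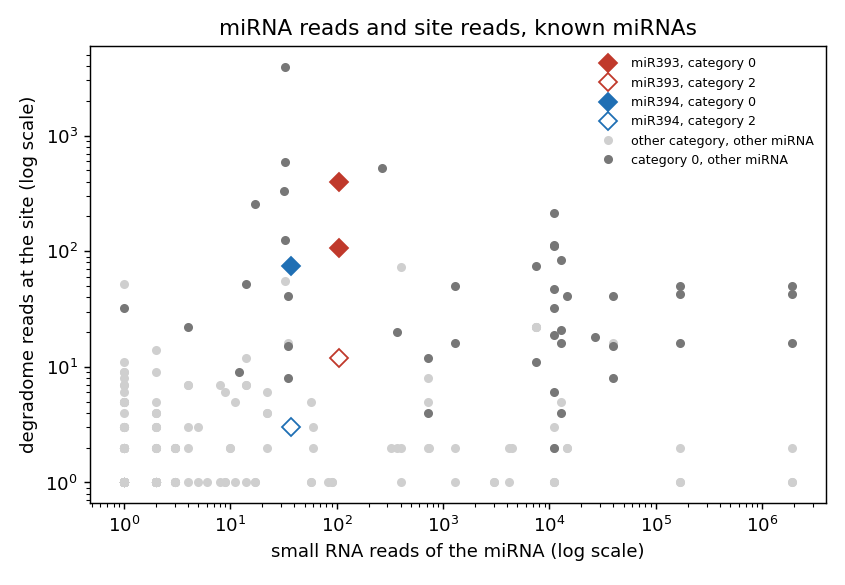
Small RNA reads of the miRNA against degradome reads at the site (both axes log scale) for the 290 pairs of known miRNAs. The pairs of miR393 (red) and miR394 (blue) of category 0 (filled) lie among the strongly read sites of rare miRNAs, and their pairs of category 2 (open) lie lower at the same miRNA count.

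The auxin response route was listed at more than its receptors. Of the transcripts in the degradome list, 71 carry a description in the sources used here, and 7 of these are auxin receptors or ARFs, out of 10 transcripts so described: ppa003344m, ppa003465m and 5 ARF transcripts. The others, ppa001069m and ppa001179m, which match ARF6, and ppa003070m, a further transcript described as TIR1, were not in the list. All 7 listed ones had a pair with p under 0.05 and of category 0. The 18.6% and 14.5% given above are shares of pairs and not of transcripts. Descriptions here come from the study's predicted targets, which were chosen for good pairing. Of pairs with a score of 2 or less, 47.7% had p under 0.05 and 44.6% were of category 0. The pair of ppa003267m (ARF8) with miR167 is not of this class, as its score was 4. Of pairs with a score of 4, 9.31% had p under 0.05 and 4.86% were of category 0. The share among the 71 described transcripts was not computed, so the 7 are given as a description only. As most listed transcripts have no description here, other auxin genes may be in the list. The median over the 7 sites was 49 reads, and the receptor sites, with 394 and 107 reads, held the first and the third place among them.

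The TIR1 site had more reads than any ARF site, while miR393 had fewer reads than the miRNAs of the ARFs. ppa002082m had 133 reads, ppa002710m 49, ppa002195m (ARF16) 46 and ppa003136m 33, all with the predicted miRNAs m0091 and m0126, which are the same sequence and had 807 and 818 reads. This sequence is the one that the study's list of conserved families gives for miR160, known for its ARF targets. The deposited row named miR160 holds another sequence, which the study's list of PCR primers also gives for miR160. That row has 2419 reads and 0 listed pairs, so the reads of m0091 are set beside the ARF sites here and the 2419 are not. ppa003267m (ARF8) had 18 reads with miR167, which had 27038 reads. This pair had a score of 4, the poorest pairing listed, against 1 at TIR1, 2 at AFB2 and 1 for m0091 at ppa002082m. Per read of miR393 there were 3.72 degradome reads at TIR1 and 1.01 at AFB2, against 0.165 per read of m0091 at ppa002082m and 0.000666 per read of miR167 at ARF8. The miRNAs at the receptors and the ARFs, and the deposited miR160, are shown side by side with the seed in capitals.
miR393: uCCAAAGGgaucgcauugauc
m0091: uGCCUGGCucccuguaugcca
miR160 as deposited: gCGUACGAggagccaagcaua
miR167: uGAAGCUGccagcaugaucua

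Of 5 transcripts described as F-box proteins, 2 were in the degradome list, ppa003465m and ppa004699m, and TIR1, itself an F-box protein though not described by that word, was the third. No F-box transcript was listed with a miRNA other than miR393 and miR394 among those with a description.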

How the data were processed

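Small RNA and degradome libraries of peach fruit were used, 1 of each, and each was identified by the processed file recorded for it. Values in the small RNA table are raw counts as the authors deposited them, after reads were filtered, other RNA classes were removed and what remained was matched to miRBase plant miRNAs. Names of predicted miRNAs are from MIREAP. The deposited degradome table gives read counts per cleavage site, normalized reads, which are a signal derived from them by the authors, and a p-value, category and alignment score that the authors obtained with CleaveLand and targetfinder. Its thresholds and transcript release were not stated.

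Exact Poisson and Clopper-Pearson intervals at the 95% level were computed, and ratios of counts were given exact conditional intervals. Intervals and rho were checked on simulated data. All rows of both miRNAs, the other miRNAs of their transcripts, sequences alike, neighbours by reads, described auxin and F-box transcripts and families within 3 times their reads are named. Examples of comparison sequences and predicted transcripts were picked after values were seen. Members and lists were chosen with earlier results of these data known. Transcript descriptions are incomplete. A spreadsheet had turned 11 alignment ranges, none of them of these miRNAs, into dates, which were read back. Alternatives covered denominators, ranked sets, thresholds and normalized reads. The RefSeq gene table holds none of the transcript identifiers. The software was SciPy 1.17.1, NumPy 2.4.6 and pandas 2.3.3 in Python 3.11.15, with matplotlib 3.10.9 for figures.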

Additional observations from a re-analysis of the deposited data

How the results depend on the processing

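Of 23 alternatives, 14 left their result in place, among them those for the read ratio of miR393 to miR394, the degradome reads at the sites of each miRNA (raw and normalized reads were equal) and the place of the TIR1 site. With miR156 and miR157 left out of the listed reads, the share was 0.0463% for miR393 and 0.0162% for miR394. Among all known miRNAs, miR393 stood at place 38 and miR394 at place 51. After Benjamini-Hochberg adjustment, 0 of the 3 pairs with p under 0.05 remained, while all 3 had p under 0.01. The rho of miRNA reads and site reads, 0.45 over all known pairs and 0.46 with 1 value a miRNA at its highest site, was -0.011 over pairs with p under 0.05 and -0.092 over pairs of the 34 conserved families. With settings chosen after seeing the data it was -0.25 over pairs of category 0 and -0.23 over conserved families at their highest site. The subsets by p and by category are chosen on the degradome peak itself, and the cause of the change in rho was not tested. With 37 reads of miR394 and 3 on ppa002503m, counting error is wide, and with 1 library of each kind no spread between fruits or stages can be given.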
